A study of Mus musculus with 16 samples.

Results

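Mitochondrial ribosomal protein genes were followed in B cells from spleens of AM14 mice, which carry a B cell receptor against self IgG, over a time course with PL2-3, a monoclonal autoantibody against chromatin. The members are the genes whose name on the array begins with Mrpl or Mrps, followed by a number and at most a single letter. There were 76 of them among 34741 genes or names on the array, 47 named for the large subunit (Mrpl) and 29 for the small subunit (Mrps), read by 106 of 55681 distinct probes. The genotypes were Tlr7/9-/-, Tlr9-/-, Tlr7-/- and WT, all on the AM14 background, and RNA was taken at 0, 6, 24 and 42 h with PL2-3, with 1 array for each of the 16 combinations. TLR7 senses RNA and TLR9 senses DNA within endosomes, and Tlr7/9-/- B cells lack both. On each array the sample was labelled with Cy5 and a pool of unstimulated AM14 B cell RNA from all 4 genotypes with Cy3. The series asked how TLR9 within autoreactive B cells bears on responses through the antigen receptor and TLR7. The age and sex of the mice, the number of mice per RNA, the purity of the B cells and the dose of PL2-3 are given in none of the sources used.

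Mitochondrial ribosomes translate the few proteins that the mitochondrial genome encodes, all of them parts of the respiratory chain and ATP synthase. Their RNAs come from mitochondrial DNA, but every one of their proteins is encoded in the nucleus, made in the cytosol and imported, so that building them calls on many scattered nuclear genes. Part of the proteins have counterparts in bacterial ribosomes and part are found only in mitochondria. Resting lymphocytes are small cells with low biosynthesis, and both their size and their mitochondrial mass grow on activation.

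Every member was well above background in the Cy5 channel on all 16 arrays, and none of their spots was saturated. Between 37.4% and 62.7% of all spots were well above background in Cy5, with the Tlr9-/- 0 h array the lowest. On that array the members ranged from -1.21 to 1.48 (log2 of sample over pool), against -0.49 to 0.45 on the other 0 h arrays. Tlr7/9-/- and Tlr9-/- arrays lay on slide 2 and Tlr7-/- and WT arrays on slide 1, so that the slide and the loss of Tlr9 cannot be told apart. No array here comes from cells cultured without PL2-3, so that effects of PL2-3 and of the hours in culture cannot be told apart. The 5 B cell markers used (Cd79a, Cd79b, Ms4a1, Pax5 and Cd22) were above background on all 16 arrays. Levels below are log2 of Cy5 over Cy3 after loess normalization, where 0 is the level in the unstimulated pool, and changes are differences of these levels. In bulk RNA, fewer cells of a type and less RNA per cell cannot be told apart.

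At 0 h the members lay close to the pool, and after PL2-3 most stood above it in all 4 genotypes. Their median level at 0, 6, 24 and 42 h was 0.00, 0.62, 0.45 and 0.40 in Tlr7/9-/- cells. It was -0.03, 0.70, 0.75 and 0.53 in Tlr9-/- cells and -0.02, 0.91, 0.92 and 0.66 in Tlr7-/- cells. In WT cells it was 0.03, 0.80, 0.94 and 0.64. The median of all genes stayed between -0.01 and 0.02 on every array. The lowest and highest members at 6 h stood at -0.56 and 1.63 in Tlr7/9-/- cells, at -0.58 and 1.71 in Tlr9-/- cells, at -0.54 and 6.92 in Tlr7-/- cells, and at -0.64 and 1.92 in WT cells. The value of 6.92 belongs to Mrpl12 and is described below.

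**Figure D1:**
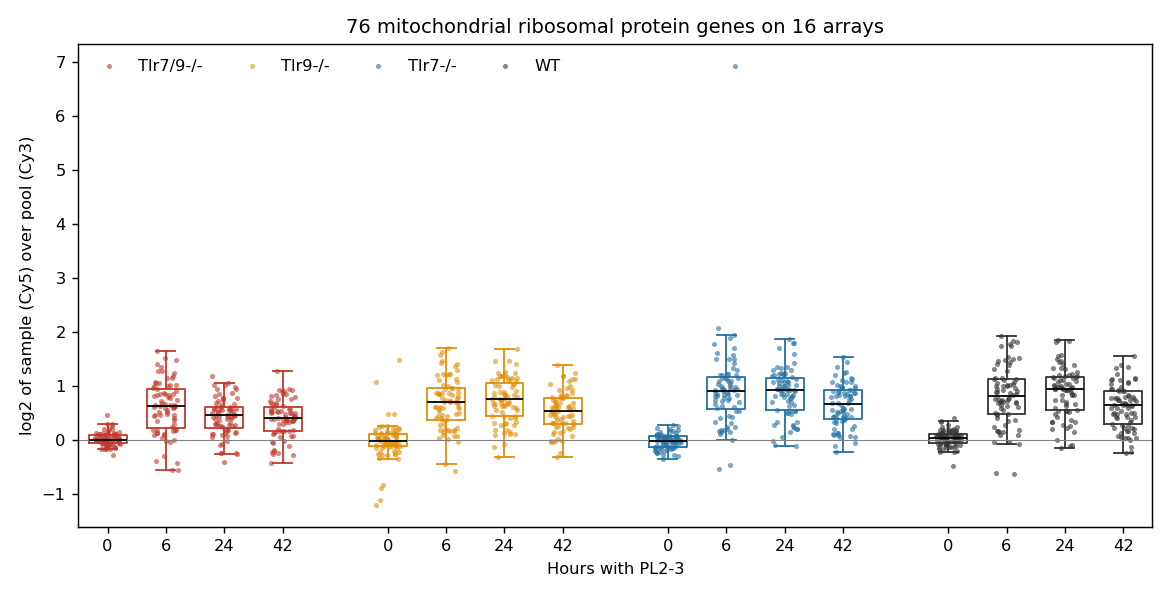
Levels of the 76 members on each of the 16 arrays (y axis, log2 of sample over pool), by genotype and hours with PL2-3 (x axis), where a point is a gene, a box spans the quartiles, its whiskers the genes that are not outlying, and the line in it is the median. Medians near 0 at 0 h gave way to medians between 0.40 and 0.94 on the stimulated arrays, the lowest of them in Tlr7/9-/- cells at 24 and 42 h, and the point at 6.92 is Mrpl12.

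The response in the genotypes with at least 1 of the receptors was tested over the 12 arrays of Tlr9-/-, Tlr7-/- and WT cells, with genotype as a term and limma's moderated test, adjusted by Benjamini-Hochberg over all 22492 genes tested. The 3 genotypes stand in for replicates, so that a p-value sets the change against how far the genotypes differ in it. At 6 h against 0 h, 61 of 76 members rose and 2 fell, while 22.9% of all genes were called higher and 23.9% lower. At 24 h 65 rose and none fell (none lower at an unadjusted p under 0.05 either), against 22.7% of all genes called higher and 26% lower. At 42 h 54 rose and none fell (again none at an unadjusted p), against 17.3% of all genes called higher and 20.7% lower. The median change of the members was 0.78, 0.89 and 0.59 at 6, 24 and 42 h, and that of all genes was within 0.01 of 0. By subunit name, 39 of 47 Mrpl and 22 of 29 Mrps genes rose at 6 h, and 41 of 47 and 24 of 29 rose at 24 h. Of the proteins with a bacterial counterpart 24 of 29 in the large subunit and 11 of 16 in the small subunit rose at 6 h, against 16 of 19 and 8 of 10 of those specific to mitochondria. On slide 2 alone, with Tlr7/9-/- and Tlr9-/- arrays, 42, 41 and 27 members rose at 6, 24 and 42 h, against 16.6%, 10.9% and 9.43% of all genes. On slide 1 alone 65, 66 and 58 rose, against 27.4%, 27.6% and 22% of all genes. Without the Tlr7-/- arrays 34 members rose at 42 h, against 9.34% of all genes. With each array centred on its median in place of loess, the members' median change at 6 h was 1.53 and that of all genes 0.23, and 73 members and 35.5% of all genes rose.

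The rises ran from slight to nearly 4-fold. Mrps6, a small subunit protein with a bacterial counterpart, stood at 0.29, 1.40, 0.78 and 0.90 in Tlr7/9-/- cells and at -0.28, 1.58, 1.46 and 1.17 in Tlr9-/- cells at 0, 6, 24 and 42 h. It stood at -0.21, 1.88, 1.70 and 0.86 in Tlr7-/- cells and at -0.01, 1.78, 1.56 and 0.74 in WT cells. All 12 stimulated arrays lay above all 4 arrays at 0 h. Its probe lies at chr16:92112223-92112282 (mm9). Its change at 6 h was 1.91 ± 0.14 (SE, n = 3 arrays at each time; 3.77-fold, limma adjusted p = 4.44e-06), and it was higher in 3 of 3 genotypes. Mrpl15, of the large subunit core, rose by 1.87 ± 0.13 (adjusted p = 2.70e-06). Mrps28, a small subunit protein, rose by 1.81 ± 0.13, and Mrps2, a conserved small subunit protein, by 1.67 ± 0.12. Mrps27, a small subunit protein found only in mitochondria, rose by 1.66 ± 0.17. Its 0 h level was -0.89 in Tlr9-/-, -0.30 in Tlr7-/- and 0.02 in WT cells, and its changes were 1.99, 1.50 and 1.49 in that order. Mrpl17 and Mrpl36, both with bacterial counterparts in the large subunit, rose by 1.60 ± 0.10 and 1.46 ± 0.12. Members called with a rise of 2-fold or more numbered 26 at 6 h, 25 after 24 h and 10 after 42 h. How many of all genes did so was not counted, so these numbers have no background to be set against.

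Mrpl12 had the largest fitted rise at 6 h, and that value rests on a single spot. Its protein forms the stalk that binds translation factors, with Mrpl10 and Mrpl11 at the stalk's base. At 6 h Mrpl12 stood at 1.34 in Tlr7/9-/-, 1.42 in Tlr9-/-, 6.92 in Tlr7-/- and 1.74 in WT cells, and at 0 h at -0.29, -0.36, -0.35 and -0.13 in the same order. On the Tlr7-/- 6 h array the pool's Cy3 signal of this probe differed from its median over the arrays by -5.73 (log2). The probe lies at chr11:120349740-120349799 (mm9). The fitted change was 3.64 ± 1.01 with that spot (adjusted p = 0.0143) and 1.87 ± 0.10 without it (adjusted p = 1.72e-06). Without spots whose pool signal lay more than 4-fold from its median, 14 of 1214 member values in all, 63 members rose at 6 h and 2 fell. All of those spots but that of Mrpl12 lay on the WT 42 h and Tlr9-/- 0 h arrays. Mrpl11 rose by 0.89 ± 0.09, and Mrpl10 by 0.31 ± 0.08 (adjusted p = 0.0103). Mrpl10 lost its call on the deposited processed signals (adjusted p = 0.197), without the Tlr7-/- arrays (adjusted p = 0.107) and without the WT arrays (adjusted p = 0.142).

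**Figure D2:**
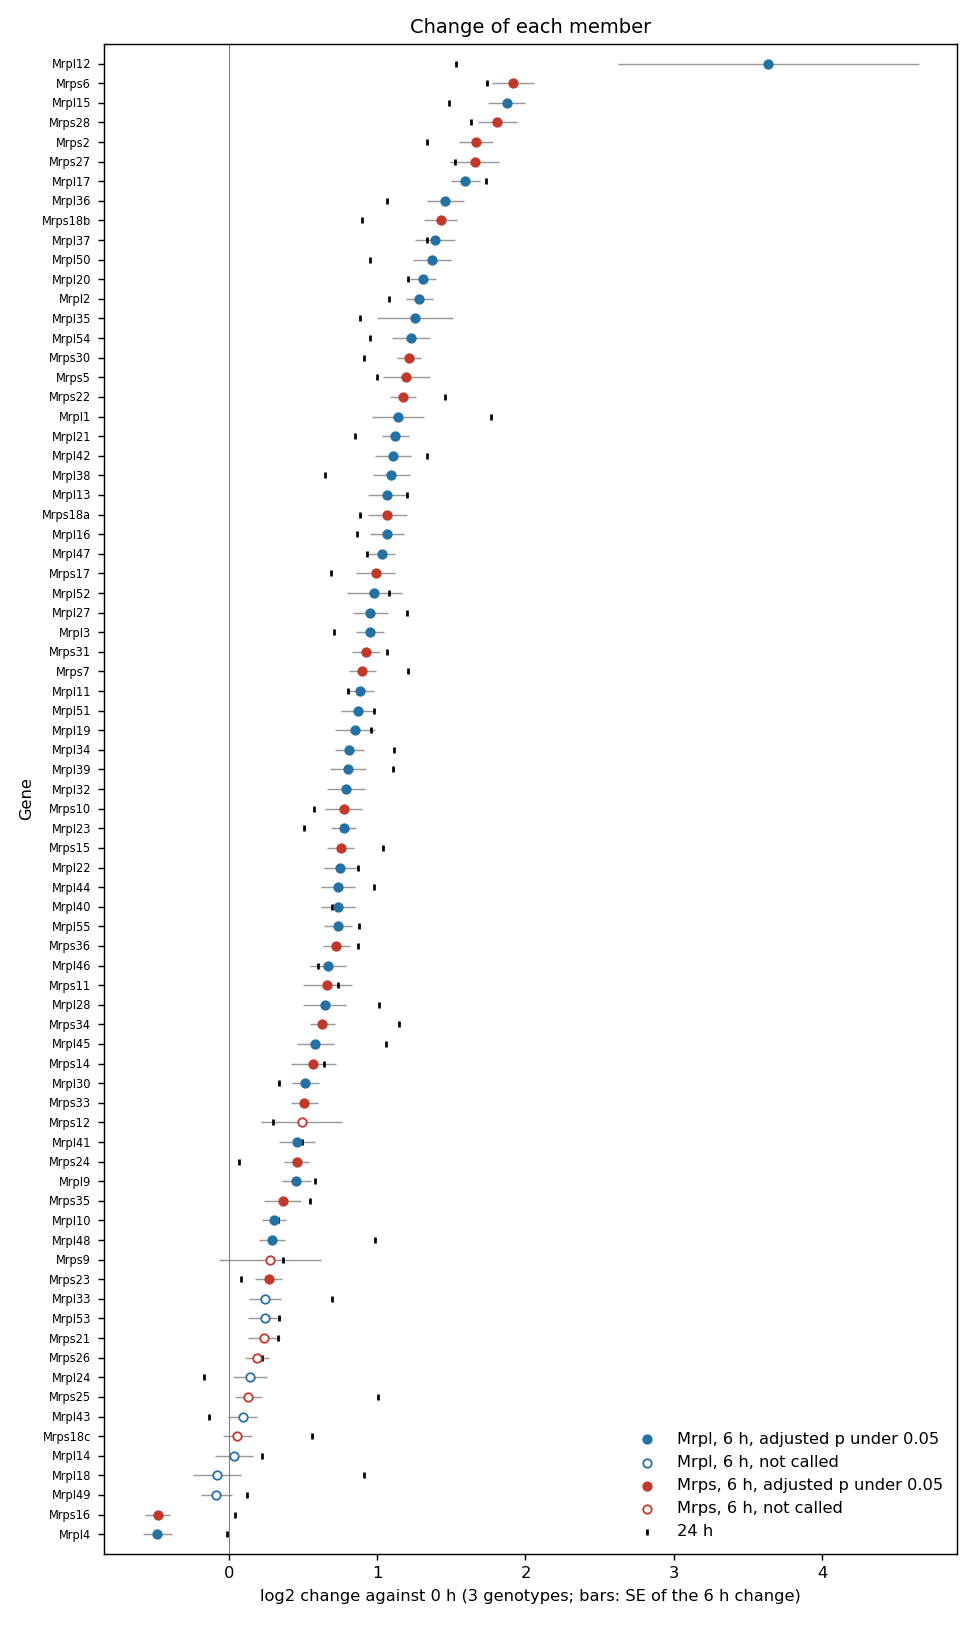
Change of each member against 0 h in the 3 genotypes with at least 1 receptor (x axis, log2), sorted by the change at 6 h, with bars of 1 SE for 6 h and short ticks for 24 h. Filled points passed an adjusted p of 0.05, 61 of them to the right of 0 and 2 to the left, and the wide bar is that of Mrpl12.

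Mrps16 and Mrpl4 were the 2 members that fell at 6 h. Mrps16, a small subunit protein with a bacterial counterpart, stood at -0.56, -0.45, -0.54 and -0.61 at 6 h in Tlr7/9-/-, Tlr9-/-, Tlr7-/- and WT cells. In each of these genotypes its level lay between -0.10 and 0.13 at 24 and 42 h. The 4 arrays at 6 h were thus the lowest of the 16. Its probe lies at chr14:21210454-21210513 (mm9). Its change at 6 h was -0.48 ± 0.08, with an adjusted p of 0.00109, while those at 24 and 42 h were 0.04 ± 0.08 and 0.14 ± 0.08. Mrpl4, which lines the exit tunnel of the large subunit, had a change of -0.48 ± 0.10 at 6 h (adjusted p = 0.00279) and of -0.01 ± 0.10 at 24 h. The direction of both rests on the scaling: with each array centred on its median, Mrps16 changed by 0.31 (adjusted p = 0.174) and Mrpl4 by 0.33 (adjusted p = 0.341), where the median of all genes was 0.23. On the WT array at 42 h the pool signal of Mrpl4 differed from its median by -5.15 (log2). Mrpl14, a large subunit protein that faces the small subunit, changed least at 6 h after loess (0.03 ± 0.13, adjusted p = 0.865).

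Members without a call at 6 h were not all idle later. Mrpl18, which is known in human cells to help carry 5S rRNA into mitochondria, stood at 0.16, -0.02, 0.26 and 0.62 in Tlr7/9-/- cells and at 0.14, 0.08, 1.14 and 0.46 in Tlr9-/- cells at 0, 6, 24 and 42 h. It stood at 0.18, 0.14, 0.92 and 1.07 in Tlr7-/- cells and at 0.09, -0.05, 1.08 and 1.12 in WT cells. At 6 h each genotype was below its own 0 h level, and at 24 h each was above it. The change of Mrpl18 was -0.08 ± 0.16 at 6 h (adjusted p = 0.730) and 0.91 ± 0.16 at 24 h (adjusted p = 0.00109), and 24 h lay 0.99 ± 0.16 above 6 h (adjusted p = 0.00181). With each array centred on its median its change at 6 h was 0.66 (adjusted p = 0.0311). Under that scaling 73 of 76 members were called higher at 6 h, so that the lack of a call at 6 h rests in part on the scaling. Mrps25, a small subunit protein found only in mitochondria, changed by 0.13 ± 0.09 at 6 h and rose 2-fold at 24 h (adjusted p = 2.05e-05). A dimmer probe of Mrps25 gave a log2 change of -0.58 at 24 h, so that its 2 probes disagree in sign. Mrpl48 rose by 0.29 ± 0.09 at 6 h and by 0.99 ± 0.09 at 24 h, and Mrpl45, which ties the ribosome to the inner membrane, by 0.58 ± 0.13 at 6 h and 1.21 ± 0.13 at 42 h. On the WT array at 42 h the pool signal of Mrpl45 differed from its median by -3.70 (log2). Mrpl1, whose bacterial counterpart shapes the stalk through which spent tRNA leaves, rose by 1.14 ± 0.18 at 6 h and 1.76 ± 0.18 at 24 h, the largest change at that time. Its 0 h level in Tlr9-/- cells stood apart, at -1.21, against -0.02 in Tlr7/9-/-, -0.16 in Tlr7-/- and -0.14 in WT cells.

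Between 24 and 6 h, 14 members rose and 9 fell, against 14.2% and 18% of all genes, so that the members' shares lay near or below those of the array. With each array centred on its median, 8 rose and none fell, against 12.7% and 11.3% of all genes. On slide 2 alone 2 rose and 1 fell, against 5.37% and 6.96% of all genes. Without the Tlr7-/- arrays, and likewise without the WT arrays, 5 rose and none fell, against 5.69% and 6.93% of all genes without Tlr7-/- and 5.25% and 6.6% without WT. Between 42 and 24 h none rose, also at an unadjusted p under 0.05, and 9 fell, against 2.11% and 3.61% of all genes. The 9 included Mrps6 (-0.65 ± 0.14, adjusted p = 0.0350), Mrpl50 (-0.59 ± 0.13) and Mrpl15 (-0.54 ± 0.13). Of the 76 members 69 had a value below 0 in this comparison, with a median of -0.22. None was called on the deposited processed signals, on slide 2 alone, without the Tlr7-/- arrays or without the WT arrays. Hardly any gene of the array was called there either: 0.0133% of all genes were lower on the processed signals and 0% in the others. Without the Tlr9-/- arrays 29 members were called lower, against 12.6% of all genes, and with each array centred on its median 61, against 20.7% of all genes. At 42 h the smallest changes against 0 h were those of Mrps23 (-0.04 ± 0.09), Mrps26 (0.04 ± 0.08) and Mrps9 (0.08 ± 0.34), and for Mrps23 a second, dimmer probe gave 0.49. The 0 h value of Mrps9 in Tlr9-/- cells, 1.48, is from a spot with a pool signal that differed from its median by -2.87 (log2), and without it Mrps9 changed by 0.65 ± 0.12 at 42 h (adjusted p = 0.00329).

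The 3 genes of the MRPS18 family had different time courses, and the difference between the genes was not tested. Bacteria have a single S18 protein. In mammals Mrps18c takes its place, Mrps18b sits elsewhere in the small subunit, and Mrps18a is part of the large subunit in spite of its name. At 6 h Mrps18b stood at 1.47 in Tlr7/9-/-, 1.46 in Tlr9-/-, 1.50 in Tlr7-/- and 1.49 in WT cells, against 0.02, -0.02, 0.01 and 0.17 at 0 h. The 4 genotypes thus nearly coincided at 6 h. At 6 h Mrps18a stood at 0.94, 0.87, 1.13 and 1.03 in the same order, against 0.08, 0.06, -0.15 and -0.09 at 0 h. At 6 h Mrps18c stood at 0.18, 0.14, 0.42 and 0.27, against 0.08, -0.01, 0.27 and 0.39 at 0 h, and the arrays of the 2 times overlapped. Mrps18b rose by 1.43 ± 0.11 at 6 h (adjusted p = 5.99e-06) and was 0.53 ± 0.11 lower at 24 h than at 6 h (adjusted p = 0.00611). Mrps18c changed by 0.06 ± 0.10 at 6 h (adjusted p = 0.684) and was 0.51 ± 0.10 higher at 24 h than at 6 h (adjusted p = 0.00416). These values are after loess. With each array centred on its median 73 of 76 members were called higher at 6 h, so that a flat value at 6 h can rest on the scaling. By 42 h all 3 MRPS18 genes had risen, Mrps18a by 0.69 ± 0.13, Mrps18b by 0.55 ± 0.11 and Mrps18c by 0.52 ± 0.10. Without the Tlr7-/- arrays the calls at 42 h were lost for Mrps18b (0.59, adjusted p = 0.0578) and Mrps18c (0.47, adjusted p = 0.077). The fall of Mrps18b after 6 h lost its call with each array centred on its median (-0.35, adjusted p = 0.245), without the Tlr7-/- arrays (adjusted p = 0.0929) and without the WT arrays (adjusted p = 0.062). Mrps30, the other large subunit protein with a small subunit name, rose by 1.21 ± 0.08 at 6 h. Mrps36 matches the name pattern, but its protein is known as a subunit of the 2-oxoglutarate dehydrogenase complex, and it rose by 0.72 ± 0.09. Mrps12, at the decoding centre, changed by 0.49 ± 0.27 at 6 h (adjusted p = 0.179), and by 0.94 ± 0.10 without spots of outlying pool signal (adjusted p = 0.000116).

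**Figure D3:**
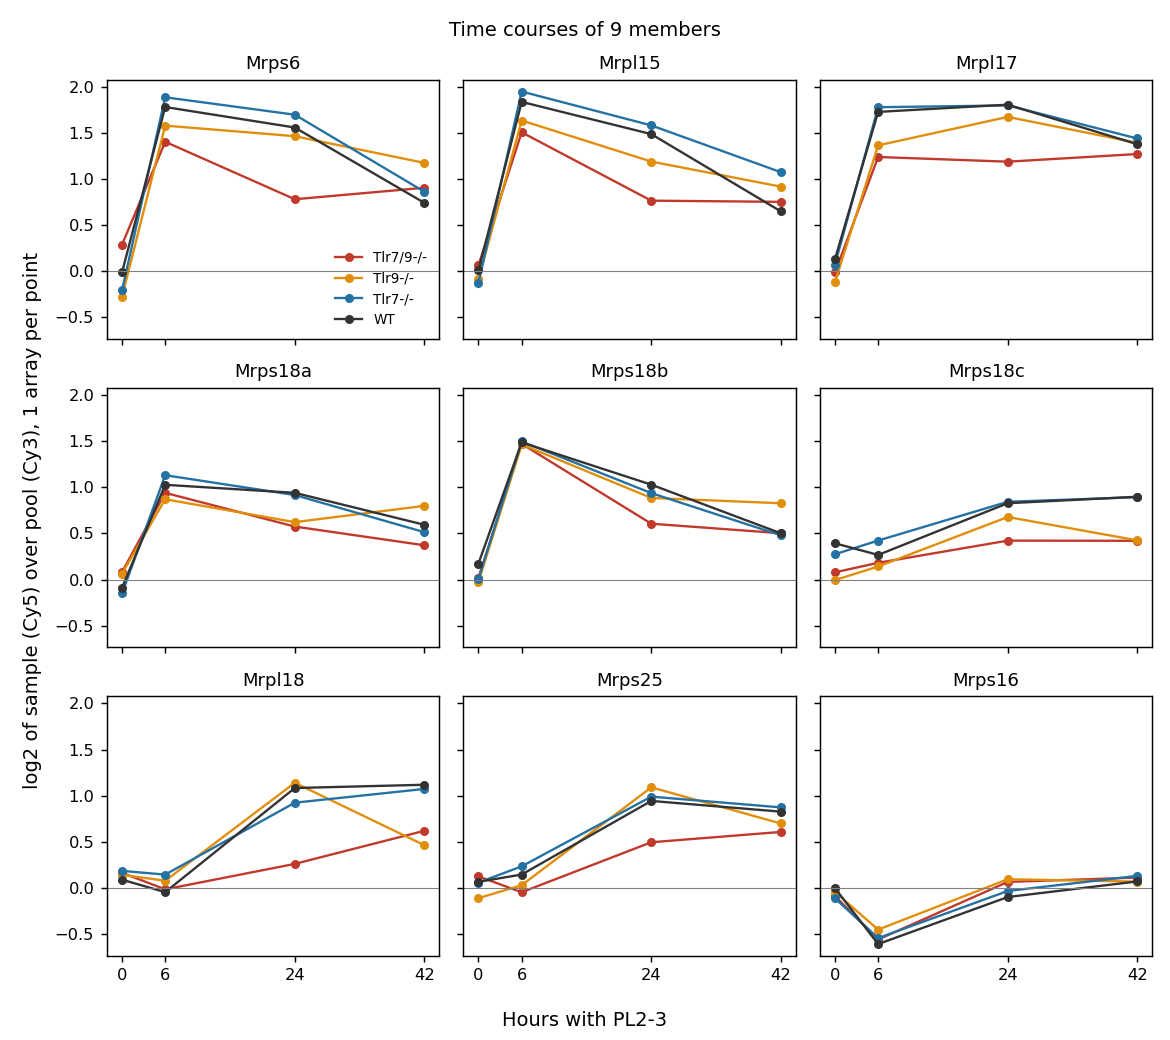
Levels of 9 members (y axis, log2 of sample over pool) against hours with PL2-3 (x axis), 1 array per point and a line per genotype. Mrps18b reached 1.46 to 1.50 at 6 h in all 4 genotypes. After loess Mrpl18 and Mrps25 rose after 6 h, and Mrps16 was at its lowest at 6 h.

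The promoters of the members were read from RefSeq windows of 250 bases before to 50 bases after the annotated start (build GRCm38.p6), available for 67 of the 76 members, 1 window a gene. Motifs were searched on both strands. CCGGAAG, the core bound by ETS factors such as GABPA, was in 23 of 67 windows (34.3%), against 9.12% of the windows of all 27025 genes in the table and 11.9% of protein-coding genes. GCCATNTT, the core of YY1 sites, was in 20 (29.9%), against 6.23% of all genes. GCATGCGC, the core of NRF1 sites, was in 8 (11.9%), against 2.8%, and CACGTG, the E-box that MYC can bind, was in 5 (7.46%), against 7.24%. The members' windows held a median of 21 CpG pairs, against 7 in all genes and 13 in protein-coding genes, and these motifs but GCCATNTT contain CpG. Among members that rose at 6 h 14 of 53 windows held CCGGAAG, against 9 of 14 among the others. For GCATGCGC these counts were 7 of 53 against 1 of 14, for GCCATNTT 16 against 4 and for CACGTG 4 against 1, and none of these splits was tested. The splits rest on the calls after loess. Mrps12, which held CCGGAAG, counted among the 14 but was called higher without spots of outlying pool signal. With each array centred on its median 73 of 76 members were called higher at 6 h. In 22 of 67 members (32.8%) another protein-coding gene started within 1000 bases on the opposite strand, head to head, against 7.43% of all genes.

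The windows shown belong to the 3 largest rises at 6 h that have an entry, leaving out Mrpl12 for its spot (Mrps6, Mrps2 and Mrps27), to a fall and the smallest change (Mrps16 and Mrpl14, as Mrpl4 has no entry), to Mrps18b and Mrps18c, of which Mrps18b was called at 6 h, and to Mrps11, whose start lies 42 bases from that of Mrpl46 on the opposite strand. They run 5′ to 3′ on the gene's own strand, and capitals mark the 4 motifs.
Mrps6 (chr16:92058086-92058385, plus strand): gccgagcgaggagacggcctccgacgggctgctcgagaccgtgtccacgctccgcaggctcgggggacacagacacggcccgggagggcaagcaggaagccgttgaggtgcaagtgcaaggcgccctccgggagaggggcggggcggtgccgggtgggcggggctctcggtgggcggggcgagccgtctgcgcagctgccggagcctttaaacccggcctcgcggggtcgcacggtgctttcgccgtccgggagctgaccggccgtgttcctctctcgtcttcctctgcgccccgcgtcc
Mrps2 (chr2:28467816-28468115, plus strand): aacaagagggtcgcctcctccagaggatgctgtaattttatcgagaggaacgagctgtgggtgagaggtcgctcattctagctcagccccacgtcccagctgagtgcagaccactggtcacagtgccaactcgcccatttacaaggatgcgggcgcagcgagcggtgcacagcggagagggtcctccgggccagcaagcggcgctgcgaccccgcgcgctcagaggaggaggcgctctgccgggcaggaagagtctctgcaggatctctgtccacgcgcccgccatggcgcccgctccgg
Mrps27 (chr13:99344536-99344835, plus strand): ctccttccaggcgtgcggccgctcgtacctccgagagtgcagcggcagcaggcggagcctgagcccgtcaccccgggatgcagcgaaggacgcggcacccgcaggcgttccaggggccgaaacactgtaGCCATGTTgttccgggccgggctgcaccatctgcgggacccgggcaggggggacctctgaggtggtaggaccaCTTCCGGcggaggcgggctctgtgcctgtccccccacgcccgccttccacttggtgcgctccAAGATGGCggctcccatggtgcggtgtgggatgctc
Mrps16 (chr14:20393441-20393740, minus strand): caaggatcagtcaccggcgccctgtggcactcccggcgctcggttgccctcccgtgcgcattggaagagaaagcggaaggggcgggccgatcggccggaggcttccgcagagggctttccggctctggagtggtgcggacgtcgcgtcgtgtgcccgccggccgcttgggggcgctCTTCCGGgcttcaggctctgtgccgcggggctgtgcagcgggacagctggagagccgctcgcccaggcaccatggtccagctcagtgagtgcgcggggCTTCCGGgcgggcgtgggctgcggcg
Mrpl14 (chr17:45686099-45686398, plus strand): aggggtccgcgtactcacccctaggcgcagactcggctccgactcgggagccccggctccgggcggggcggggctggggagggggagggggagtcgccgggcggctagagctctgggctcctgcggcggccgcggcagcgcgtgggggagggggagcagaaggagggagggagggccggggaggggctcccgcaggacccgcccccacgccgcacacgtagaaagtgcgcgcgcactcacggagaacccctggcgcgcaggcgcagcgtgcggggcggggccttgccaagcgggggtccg
Mrps11 (chr7:78782881-78783180, plus strand): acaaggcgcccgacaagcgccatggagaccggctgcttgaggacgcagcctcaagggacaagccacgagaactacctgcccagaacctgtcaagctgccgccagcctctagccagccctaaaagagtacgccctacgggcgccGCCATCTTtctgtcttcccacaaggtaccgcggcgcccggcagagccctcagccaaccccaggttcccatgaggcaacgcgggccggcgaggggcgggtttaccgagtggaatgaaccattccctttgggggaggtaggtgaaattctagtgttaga
Mrps18b (chr17:35916391-35916690, minus strand): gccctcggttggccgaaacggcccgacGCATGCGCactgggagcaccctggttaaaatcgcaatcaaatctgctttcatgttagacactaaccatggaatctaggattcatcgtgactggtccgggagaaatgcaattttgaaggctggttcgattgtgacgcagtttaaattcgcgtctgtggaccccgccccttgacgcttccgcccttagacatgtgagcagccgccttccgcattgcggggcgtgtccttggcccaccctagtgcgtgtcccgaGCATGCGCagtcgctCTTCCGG
Mrps18c (chr5:100798509-100798808, plus strand): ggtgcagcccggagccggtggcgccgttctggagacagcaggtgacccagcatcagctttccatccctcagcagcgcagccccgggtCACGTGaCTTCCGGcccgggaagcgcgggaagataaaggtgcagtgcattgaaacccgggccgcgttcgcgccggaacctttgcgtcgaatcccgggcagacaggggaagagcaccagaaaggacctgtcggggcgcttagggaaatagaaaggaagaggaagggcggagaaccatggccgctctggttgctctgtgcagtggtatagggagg

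None of the 4 motifs was found in the windows of Mrps6, Mrps2 and Mrpl14, which include a rise of 1.91 and a change of 0.03. Mrps27 held 2 GCCATNTT matches and 1 CCGGAAG, and Mrps16, which fell, held 2 CCGGAAG. Mrps18b held 2 GCATGCGC and 1 CCGGAAG, while Mrps18c held 1 CACGTG and 1 CCGGAAG. Mrps11 and Mrpl46, which encode proteins of different subunits and start 42 bases apart, rose by 0.66 ± 0.17 and 0.67 ± 0.12 at 6 h and by 0.73 ± 0.17 and 0.60 ± 0.12 at 24 h. Sars2, which charges mitochondrial tRNA with serine and starts 147 bases from Mrps12 on the opposite strand, rose by 1.16 at 6 h. The 0 h level of Sars2 was -0.93 in Tlr9-/-, 0.11 in Tlr7-/- and -0.11 in WT cells. The probes measured stretches of the transcripts and not the promoters, and a motif match is a description of these letters only.

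With neither receptor, most members still stood above their own 0 h array, and after loess their median change was the lowest of the 4 genotypes at each time. On the Tlr7/9-/- arrays the median change of the members from the genotype's own 0 h array was 0.64 at 6 h, 0.41 at 24 h and 0.41 at 42 h. It was 0.76, 0.83 and 0.60 in Tlr9-/- cells, 0.93, 0.95 and 0.67 in Tlr7-/- cells and 0.78, 0.95 and 0.60 in WT cells. That order did not hold at 42 h with each array centred on its median (0.85 in Tlr7/9-/-, against 0.72 in Tlr9-/-, 1.27 in Tlr7-/- and 0.81 in WT cells), nor at 6 h on the deposited processed signals (0.58 in Tlr7/9-/-, against 0.56 in Tlr9-/- cells). Over all genes the median change on the Tlr7/9-/- arrays was -0.02, -0.02 and -0.01 at 6, 24 and 42 h. Of 76 members 69, 69 and 63 stood above their own 0 h array in Tlr7/9-/- cells at 6, 24 and 42 h. At 6, 24 and 42 h 18, 3 and 2 members stood at least 2-fold above it in Tlr7/9-/- cells, against 8.3%, 3.8% and 6.31% of all genes. The counts were 22, 23 and 13 of 74 in Tlr9-/- cells, against 10.2%, 10.4% and 7.04% of all genes. They were 31, 33 and 18 in Tlr7-/- cells, against 9.7%, 9.14% and 7.39%, and 22, 30 and 12 in WT cells, against 9.45%, 9.15% and 6.62%. The highest level of 54 of 76 members came at 6 h in Tlr7/9-/- cells, against 31 of 74 in Tlr9-/-, 39 in Tlr7-/- and 35 in WT cells. How often the highest level of all genes came at 6 h was not counted. The SD over all genes on the 24 h array was 0.60 in Tlr7/9-/- cells, against 0.87 in Tlr9-/-, 0.84 in Tlr7-/- and 0.85 in WT cells, so that levels spread less over the whole array at 24 h. In the same order it was 0.85, 0.84, 0.945 and 0.92 at 6 h, and 0.72, 0.66, 0.79 and 0.71 at 42 h. The part of this spread in the members' changes was not tested.

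Before stimulation the Tlr7/9-/- array stood below all 3 other genotypes for 12 of 74 members, where 24.8% of all genes did. After 6 h it did so for 52 of 76 (28.2% of all genes), after 24 h for 69 (33.2%) and after 42 h for 50 (24.2%). The median difference from the mean of the other 3 arrays was -0.01, -0.18, -0.39 and -0.19 at 0, 6, 24 and 42 h. With 1 array per genotype and time, these counts describe the arrays.

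**Figure D4:**
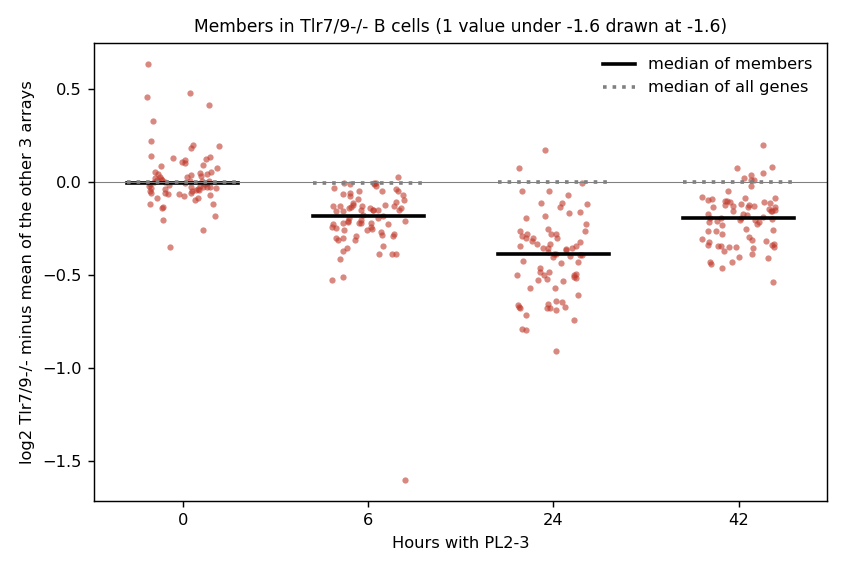
Level of each member on the Tlr7/9-/- array minus the mean of the other 3 genotypes at the same time (y axis, log2), by hours with PL2-3 (x axis), with the median of the members (solid) and of all genes (dotted). The members' median was -0.01 at 0 h and -0.39 at 24 h, and that of all genes stayed within 0.01 of 0, and the value of Mrpl12 at 6 h lies beyond the axis and is drawn at its lower end.

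No member passed the threshold when Tlr7/9-/- was tested against the other 3 genotypes over the 12 arrays with PL2-3, in a fit that also holds time. That was also true of all 22966 genes (0% called), although 49 of 76 members, every one lower in Tlr7/9-/- cells, and 19.2% of all genes had an unadjusted p under 0.05. Each genotype has 1 array per time, so the times stand in for replicates of a genotype in this fit and the other genotype comparisons. The p-values and intervals of these comparisons therefore measure no spread between mice or cultures. The lowest adjusted p of a member was 0.119. The median difference was -0.27, 73 of 76 values lay below 0, and the 95% interval of a member's difference had a median half-width of 0.22. Mrpl20, which has a bacterial counterpart in the large subunit, stood at 1.02, 0.39 and 0.34 at 6, 24 and 42 h in Tlr7/9-/- cells, at 1.20, 1.20 and 0.68 in Tlr9-/-, at 1.56, 1.29 and 0.81 in Tlr7-/- and at 1.44, 1.41 and 0.92 in WT cells. The Tlr7/9-/- array was the lowest at each of the 3 times, and the difference was -0.59 ± 0.11 (adjusted p = 0.119). Mrpl53, found only in mitochondria, stood at -0.39, -0.41 and -0.44 in Tlr7/9-/- cells and between -0.31 and 0.33 on the other 9 arrays (-0.54 ± 0.10, adjusted p = 0.119). The smallest differences were those of Mrps16 (0.03 ± 0.07), Mrpl24 (0.03 ± 0.10) and Mrpl23 (-0.04 ± 0.06). With each array centred on its median the members' median difference was -0.69 and that of all genes -0.14.

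Within slide 2, Tlr7/9-/- against Tlr9-/- cells gave no call (0.0435% of all genes were called), a median difference of -0.17 and 73 of 76 values below 0, with 10 at an unadjusted p under 0.05 against 5.9% of all genes. Tlr9-/- against WT, which lie on different slides, gave no call among the members (0.0566% of all genes), a median of -0.14 and 62 of 76 values below 0, with 15 at an unadjusted p under 0.05 against 9.29% of all genes. The median of all genes was -0.01 there. With each array centred on its median the members' median was -0.70 and that of all genes -0.28, so that the size rests on the scaling. Tlr7-/- against WT, within slide 1, gave no call (0.00435% of all genes) and a median of 0.03, with no member at an unadjusted p under 0.05 against 1.84% of all genes. The median half-width of a member's 95% interval was 0.27 in these comparisons. For Tlr7-/- against WT 75 of the 76 intervals, all but that of Mrpl12, did not reach a 2-fold rise, and 76 did not reach a 2-fold fall. As the times stand in for replicates, these intervals cannot exclude such a difference between mice or cultures. The same count over all genes was not made. The response of Tlr7/9-/- cells, stimulated arrays less the 0 h array, set against the mean response of the others, gave no call in 74 members (0.0384% of all genes) and a median of -0.27. In that comparison 12 members had an unadjusted p under 0.05, against 8.17% of all genes.

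Genes that work beside the mitochondrial ribosome moved with it to differing degrees in the 3 genotypes with at least 1 receptor. Of 21 genes of mitochondrial import, the path by which every mitochondrial ribosomal protein arrives, 19 rose and none fell at 6, 24 and 42 h, with medians of 1.62, 1.35 and 0.76. Timm8a1, a chaperone of the intermembrane space, rose by 2.97 at 6 h and Hspa9, the matrix Hsp70 that pulls proteins in, by 2.67. Of 24 genes of mitoribosome assembly and rRNA modification 16 rose and 1 fell at 6 h. C1qbp, a matrix protein tied to mitoribosome assembly, rose by 2.71 and Rcc1l, an assembly factor, by 1.67, while Ngrn had a change of -0.38. Of 15 translation factors 8 rose and 2 fell at 6 h. Tsfm and Gfm1, the elongation factors Ts and G1, rose by 1.55 and 1.13, and the changes of Oxa1l, the insertase for new proteins, and Mtif3, an initiation factor, were -0.53 and -0.33.

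Of 17 mitochondrial aminoacyl-tRNA synthetases 8 rose and 2 fell at 6 h, Yars2 and Sars2 by 1.66 and 1.16, with Cars2 and Vars2 at -0.71 and -0.61. Of 11 genes that keep and transcribe mitochondrial DNA 7 rose and 3 fell. Top1mt and Twnk rose by 2.77 and 1.79, and Polg2 and Tfam, the DNA-packaging transcription factor, changed by -0.69 and -0.63. Of 8 regulators of mitochondrial biogenesis 5 rose at 6 h: Myc (4.81), Pprc1 (1.87), Gabpb1 (0.71), Gabpa (0.63) and Ppargc1b (0.58). Esrra fell at 6, 24 and 42 h (-0.55, -0.68 and -0.89), and Nrf1 and Yy1 had changes of 0.13 and -0.08 at 6 h without a call. Nrf1 was lower at 24 h (-0.42, adjusted p = 0.02). Both lost their calls at 24 h with each array centred on its median, Nrf1 at 0.25 (adjusted p = 0.36) and Esrra at 0.19 (adjusted p = 0.481), and at 6 h Nrf1 (0.84, adjusted p = 0.00568) and Yy1 (0.55, adjusted p = 0.0204) were called higher. Under that scaling Esrra stood at 0.19 at 6 h (adjusted p = 0.509) and still fell at 42 h (-0.65, adjusted p = 0.0364). At 42 h Myc was the sole regulator still called higher.

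Of 7 mitoribosomal proteins whose names on the array lie outside the pattern 3 rose at 6 h and 5 at 24 h, and none fell. Median centring gave 6 higher at 6 h, and at 24 h 2 rose on the deposited processed signals and 1 at a normexp offset of 0. Gadd45gip1, a large subunit protein, rose by 1.29 at 6 h. Of 76 genes of cytosolic ribosomal proteins 11 rose and 34 fell at 6 h, with a median of -0.19, but this direction rests on the scaling: 21 rose and 13 fell on the deposited processed signals (median 0.15), and 48 rose and none fell with each array centred on its median (median 0.78). No gene of the lists above from import to biogenesis regulators fell at 6 h under median centring either, while their medians stayed above 0 at 6 h under each scaling tried. Of 74 nuclear genes of the respiratory chain and ATP synthase 33 rose and 9 fell at 6 h, 53 and 4 at 24 h, and 55 and 1 at 42 h, with medians of 0.28, 0.52 and 0.52. Median centring put these medians at 1.12, 1.64 and 0.92, and 65 rose and none fell at 6 h. The import genes had 21 higher under median centring and 19 on the processed signals. The lists were not tested against each other.

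**Figure D5:**
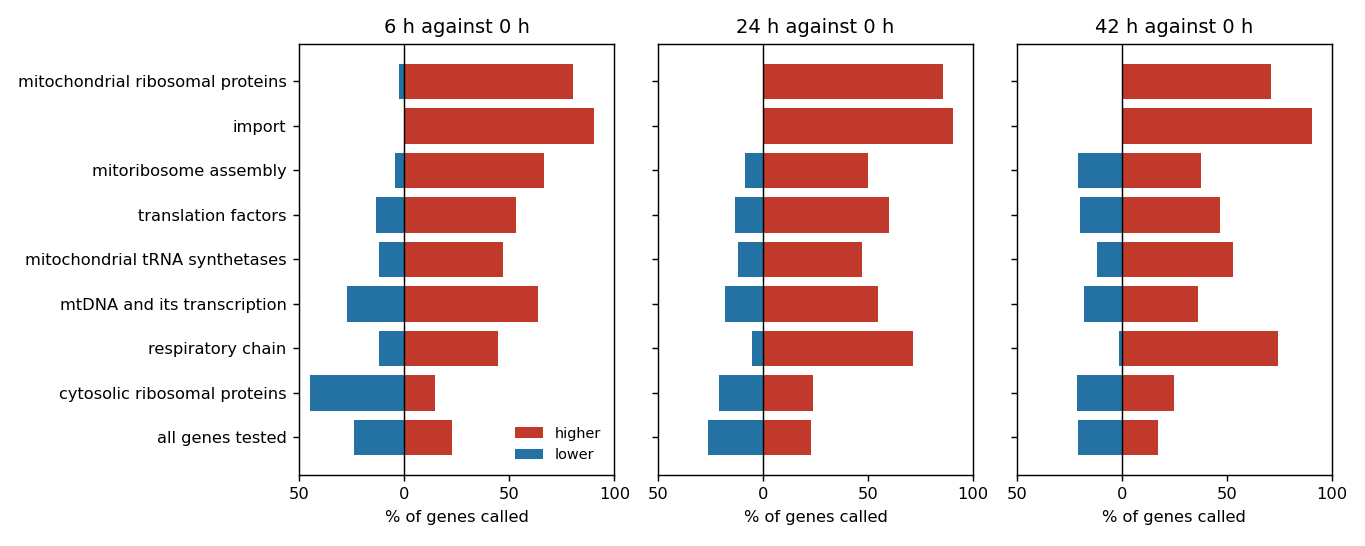
Share of the genes of each list called higher (to the right of 0) or lower (to the left) at 6, 24 and 42 h against 0 h (x axis, % of the genes tested), with all genes in the lowest bar. Mitochondrial ribosomal protein genes and import genes had the largest shares called higher at 6 and 24 h, and cytosolic ribosomal protein genes were more often lower than higher at 6 h under this scaling, which the deposited processed signals and median centring turn round.

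Markers of cell types moved over the same hours. All 5 B cell markers used were lower at 6, 24 and 42 h (median -2.84 at 6 h), and their median level on the arrays lay between -2.92 and -1.36 after stimulation, against -0.06 to 0.26 at 0 h. Of 10 myeloid markers 9 fell at each time, and their median level lay between -2.35 and -1.48 after stimulation, against -0.51 to 0.29 at 0 h. Between 5 and 10 of the myeloid markers were above background on each array. All 5 red cell markers tested fell at each time (median -1.71 at 6 h), but with each array centred on its median 1 of the 5 was called at 6 h (median -0.83). At 6 h 4 of 4 NK cell markers tested fell, but only 2 or 3 of the 5 NK cell markers were above background in Cy5 on each 6 h array. Of 7 T cell markers tested 5 fell at 6 h (3 with median centring) and Lck rose, by 1.58. Of the 5 plasma cell markers 3 rose at 6 h, led by Irf4 (2.60), and Jchain fell (-2.46). In Tlr7/9-/- against the other genotypes no marker was called, and the B cell markers had a median difference of 0.48. The part of these markers in the members' changes was not tested.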

How the data were processed

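RNA of 16 samples was measured on 2-colour Agilent arrays. Per the file headers, Agilent Feature Extraction 10.1.1.1 turned the scans into spot values, and the deposited intensity used here is each colour's mean spot signal with its median local background. The authors' series matrix holds log10 ratios of the processed signals (100% of spots within 6e-04). The deposited flags of background, outliers and saturation are other values, used as filters.

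Normexp (offset 50) and loess within arrays gave log2 of Cy5 over Cy3 (R 4.3.3; packages limma, version 3.58.1, data.table, version 1.17.8, and jsonlite, version 2.0.0). Controls were dropped, outlier spots were set to missing and repeated spots averaged. The brightest probe stands for a gene. Probe coordinates in the files are on mm9, and other genes were named through RefSeq accessions. Tested genes had a signal well above background, in 1 colour or both, on 3 or more arrays of the fit and at most 2 missing values. For Mrpl14 and Mrpl43 the Tlr9-/- 0 h spot was missing, so their time fits lack it.

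The 10 comparisons were fitted with lmFit and eBayes, 2-sided, at a threshold of 0.05 on the Benjamini-Hochberg adjusted p. Residual degrees of freedom were 6, and 8 for Tlr7/9-/- against the others. Nothing says that the samples came from separate mice or cultures, so that p-values measure only the spread between these arrays, whose number limits the precision. Tested on simulated data, the fit of 6 h against 0 h (22387 genes) recovered 76% of changes of 1 log2 unit and 20% of changes of 0.5, and that of Tlr7/9-/- against the others (22904 genes) 86% and 46%. The simulated arrays held independent noise and few changed genes, unlike the real ones. These shares therefore do not say how many real differences of such a size would be called.

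The naming rule took, for the changes against 0 h and Tlr7/9-/- against the others, the 8 largest rises and 5 largest falls among calls that run the same way throughout and the 3 smallest changes, the 3 largest calls each way elsewhere, the 3 MRPS18 genes, Mrpl10, Mrpl11, Mrpl12, Mrps12, Mrps30 and Mrps36, and of other lists the 2 largest rises and falls. Of those, the text gives the ones it needs. Mrpl20, Mrpl53, Mrpl46, Mrps11 and members given only at a time outside that rule were chosen after their values were seen. The members and lists were chosen with earlier results of these data known. Alternatives were other background corrections, scalings, probe rules and filters, and subsets of arrays. MRPS18 protein sequences were not analysed here. A further B cell marker is not reported here, and the B cell values leave it out.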

Additional observations from a re-analysis of the deposited data

How the results depend on the processing

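Of the recomputed counts and medians 274 held and 48 moved by over 1.5 times (counts) or by more than the SD between genotypes (medians). The 274 include Aquantile, whose counts could not differ, and the series table beside the processed signals that it repeats. Genotype counts of 0 that stayed at 0, where hardly any gene of the array was called, are also among them. The tally is therefore no measure of how firm the results are. The members' median rise over time kept its direction under every alternative run, and the counts of later steps did not hold. With each array centred on its median in place of loess, the median of all genes shifted by 0.23 at 6 h and 24 h, no member fell at 6 h (2 with loess), 8 rose and none fell between 24 and 6 h, and 61 fell between 42 and 24 h, against 20.7% of all genes called lower and 0.196% higher. Under that scaling the median changes at 6, 24 and 42 h were 1.26, 0.70 and 0.85 in Tlr7/9-/-, 1.27, 1.18 and 0.72 in Tlr9-/-, 1.87, 2.04 and 1.27 in Tlr7-/-, and 1.50, 2.06 and 0.81 in WT cells, and the signs of Mrpl18 (0.66), Mrpl4 (0.33) and Mrps16 (0.31) at 6 h and of Mrpl4 at 24 h (1.08) turned. Between 24 and 6 h, higher and lower counts were 8 and 1 with the deposited processed signals and with the authors' series table, against 11.4% and 12.7% of all genes. They were 9 and 14 with the Tlr7/9-/- arrays added (15.4% and 18.3% of all genes) and 2 and 1 on slide 2 alone (5.37% and 6.96%). Scaling between arrays gave 7 higher (9.9% of all genes), and a normexp offset of 0 gave 2 lower (14.5%). Between 42 and 24 h none fell with the processed signals, the series table, an offset of 0, scaling, the Tlr7/9-/- arrays added or slide 2 alone. In these settings 0% to 1.02% of all genes were called lower. With the mean of a gene's probes 14 members fell, against 3.86% of all genes. On slide 2 alone 1 member fell at 6 h (15.9% of all genes), and 41 rose at 24 h (10.9%) and 27 at 42 h (9.43%). With the mean of probes 1 fell at 42 h (19.1% of all genes) and Mrpl50 stood at 0.0097 between 24 and 6 h. After scaling, 3 of 74 members were called for a lower response in Tlr7/9-/- cells, against 2.86% of all genes. The processed signals gave a median change of 0.56 in Tlr9-/- cells at 6 h. Leaving out the arrays of 1 genotype, 51 to 65 members were higher at 6 h (17.5% to 27.4% of all genes) and 2 lower (17.2% to 29.9%). At 24 h 54 to 66 were higher (16.3% to 27.6%). At 42 h 34 to 58 were higher (9.34% to 22%) and 0 to 1 lower (10.8% to 26.6%). Between 24 and 6 h 5 to 13 were higher (5.25% to 19.7%) and 0 to 10 lower (6.6% to 21.3%). Between 42 and 24 h 0 to 29 were lower (0% to 12.6%). Of the recomputed values of named members 1107 kept their direction and side of the threshold, 70 lost and 21 gained the call, and 5 reversed. Scaling between arrays, leaving out spots of outlying pool signal, slide 2 alone and the response without Tlr9-/- arrays were chosen after seeing the data. Aquantile leaves ratios as they are by construction, and its values are counted in both tallies. The cause of these differences was not tested. The time fits hold genotype as a term and so compare times within genotypes, and the genotype fits hold time. No paired analysis by replicate number was possible because the labels carry none.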
